A study of Mus musculus with 9 samples.

Results

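The Toll-like receptors and the proteins that work with them were followed in neutrophils from 3 compartments of mice bearing a pancreatic tumor. The members are the rows whose gene name is Tlr1, Tlr2, Tlr4, Tlr6, Tlr7, Tlr9, Tlr13, Cd14, Ly96 or Myd88, which makes 10 of the 46517 genes listed. Orthotopically transplanted (OT) C57BL/6 mice had received 1242 L cells, a luciferase-expressing mouse pancreatic tumor line, by injection into the pancreas. On day 27, live CD45+ cells negative for CD3, B220 and NK1.1 and positive for Ly6G and Ly6C were sorted from bone marrow, blood and tumor, and RNA was sequenced in 3 libraries per compartment, 9 in all, each made per the study's methods from a pool of 5 mice. Bone marrow cells are labelled Ly6G.hi, and blood and tumor cells are labelled Ly6G+. Every group carried the tumor and no tumor-free mice enter these data, tumors were digested with enzymes whereas blood was freed of red cells by lysis, and all tumors came from 1 cell line. The comparisons ask how neutrophils differ between the site where they form, the circulation and the tumor, and compartment, gate and tissue handling cannot be told apart.

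Toll-like receptors recognise conserved microbial molecules and signals from damaged cells. On the cell surface, TLR4 senses lipopolysaccharide together with MD-2, the product of Ly96, and CD14 hands the lipid over to that complex. TLR2 pairs with TLR1 or TLR6 to sense lipoproteins. TLR7, TLR9 and TLR13 sit in endosomes, where they sense single-stranded RNA, unmethylated CpG DNA and bacterial ribosomal RNA. All of the receptors named here signal through the adaptor MyD88, which recruits IRAK kinases and leads to activation of NF-kB and the transcription of cytokine genes. Neutrophils are known to carry most of these receptors and to respond to their ligands with cytokine release and longer survival.

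Between 4580807 and 7949367 reads per library were recovered from the deposited values. The correlation of log2 values across genes was 0.875 to 0.933 within compartments and 0.415 to 0.793 between them. The 10 neutrophil markers were read in every compartment, with summed levels of 46207 to 47450 RPM (reads per 1000000 recovered reads) in bone marrow, then 35074 to 35947 in blood and 11766 to 13695 in tumor. The 8 immature neutrophil markers summed to 71831 to 77256 RPM in bone marrow against 1860 to 2651 in blood and 4533 to 9406 in tumor. The 8 tumor epithelium markers stood at 2727 to 5840 RPM in tumor and at most 141 elsewhere, and the 7 fibroblast markers at 1105 to 1361 in tumor and at most 9.99 elsewhere. The authors' scaling factors were 1.08 to 1.22 in tumor and 0.796 to 0.881 in the other libraries, so that values scaled by plain totals shift tumor against blood by 0.42 and tumor against bone marrow by 0.42 on the log2 scale over all genes tested.

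Tlr1 and Tlr6 are neighbours on chromosome 5 and partly identical, which bears on how their reads could be assigned. Tlr1 lies at chr5:64924679-64933563 and Tlr6 at chr5:64952031-64960097, both on the minus strand of GRCm38. Of the stretches of 100 bases in the longest coding transcripts, 259 were shared, which is 8.85% of the 2926 in Tlr1 and 7.24% of the 3578 in Tlr6. The longest identical run, 229 bases, lies in the coding exon of each gene, at chr5:64925537-64925765 in Tlr1 and chr5:64953828-64954056 in Tlr6. It is shown because this stretch does not distinguish the 2 genes.
Tlr1 and Tlr6 shared run: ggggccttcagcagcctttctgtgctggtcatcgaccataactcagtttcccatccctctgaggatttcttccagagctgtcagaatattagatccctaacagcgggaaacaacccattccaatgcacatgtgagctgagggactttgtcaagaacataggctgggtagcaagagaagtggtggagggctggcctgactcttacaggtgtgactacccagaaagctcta

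Tlr1, Tlr6, Tlr13 and Myd88 stood higher in blood than in both other compartments (values below). Of the 7794 genes tested, tumor lay below blood without overlap in 2887 and blood above bone marrow in 2168. The share of genes with both was not counted. For Tlr1, Tlr6, Tlr13 and Myd88, the 250 bases before the RefSeq start sites on GRCm38.p6 are shown side by side. The windows are chr5:64933559-64933808 on the minus strand for Tlr1, chr5:64960049-64960298 on the minus strand for Tlr6, chrX:106143025-106143274 on the plus strand for Tlr13 and chr9:119340019-119340268 on the minus strand for Myd88. Capitals mark matches, on either strand, to the core motif GAGGAA of PU.1, a myeloid transcription factor, to an NF-kB motif (GGGA and CC with any 4 bases between) or to an interferon response motif (GAAA, any 2 bases, GAAA). These 3 motifs do not overlap each other in the windows shown.
Tlr1 promoter: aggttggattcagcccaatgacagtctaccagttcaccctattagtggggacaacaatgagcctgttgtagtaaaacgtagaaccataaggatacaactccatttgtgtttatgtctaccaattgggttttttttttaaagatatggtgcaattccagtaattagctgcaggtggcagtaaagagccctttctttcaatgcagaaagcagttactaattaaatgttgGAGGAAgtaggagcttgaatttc
Tlr6 promoter: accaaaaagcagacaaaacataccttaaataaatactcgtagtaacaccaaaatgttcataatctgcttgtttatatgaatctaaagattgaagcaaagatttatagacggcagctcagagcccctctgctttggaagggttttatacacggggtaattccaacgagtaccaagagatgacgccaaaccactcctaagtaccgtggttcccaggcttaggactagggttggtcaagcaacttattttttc
Tlr13 promoter: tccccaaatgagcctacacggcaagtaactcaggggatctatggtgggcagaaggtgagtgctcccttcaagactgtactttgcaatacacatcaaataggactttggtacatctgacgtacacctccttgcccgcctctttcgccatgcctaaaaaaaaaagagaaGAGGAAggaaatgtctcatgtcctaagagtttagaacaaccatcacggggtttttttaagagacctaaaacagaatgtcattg
Myd88 promoter: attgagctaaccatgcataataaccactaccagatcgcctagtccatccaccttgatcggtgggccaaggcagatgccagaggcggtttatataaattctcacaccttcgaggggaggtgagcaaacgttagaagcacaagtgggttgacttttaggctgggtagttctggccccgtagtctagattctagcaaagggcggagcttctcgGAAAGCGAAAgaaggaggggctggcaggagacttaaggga

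A promoter was found for 6 members. Tlr1 and Tlr6 each had 2 RefSeq start sites, and only the site nearest the GENCODE start was used. The PU.1 core lay 23 bases before the start of Tlr1, 83 before Tlr13 and 112 before Tlr9, and 23.3% of all 32851 promoters of this length held it. The interferon response motif lay 40 bases before the start of Myd88, against 2.98% of all promoters, and the NF-kB motif 172 bases before that of Tlr2, against 17.6%. The Tlr6 window shown held none of the 3. GENCODE M21 places a first transcript base upstream of the RefSeq start by 5 bases for Tlr1, 49 for Tlr6, 71 for Tlr13, 159 for Tlr2 and 1393 for Myd88. A match of letters is a description of the window and no evidence of binding.

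Of the 10 genes, 8 passed the filter on low values (log2 FPKM above 0 in at least 3 libraries), and Ly96 and Tlr9 did not. Tlr7 passed it only through the bone marrow and blood libraries. Between tumor and blood, 1 gene was higher in tumor, Cd14, and 5 were lower, Tlr1, Tlr6, Tlr7, Tlr13 and Myd88, where 28.1% of the 7794 genes tested were higher and 34.5% lower. Between tumor and bone marrow, 4 were higher in tumor, Cd14, Tlr1, Tlr4 and Tlr6, and 2 lower, Tlr7 and Myd88, against 22.4% and 32.9% of all genes tested. Between blood and bone marrow, 6 were higher in blood, Tlr1, Tlr4, Tlr6, Tlr13, Cd14 and Myd88, and 0 lower, against 20.6% and 23.6%. The median log2 fold change of the 8 genes was -1.13 for tumor against blood, 0.59 for tumor against bone marrow and 1.46 for blood against bone marrow, beside -0.17, -0.21 and -0.04 over all genes tested. By their ranges, blood lay above bone marrow without overlap in 7 of the 10 genes and below in 0, and above in 2168 and below in 2417 of the 7794 genes tested. Under quantile normalization and with plain library totals, 6 genes were higher in tumor than in bone marrow, with Tlr2 and Tlr13 added. In both settings 4 were lower in tumor than in blood, without Tlr6 under quantile normalization and without Tlr1 with plain totals. Of the 7794 genes tested, 1830 under quantile normalization and 2580 with plain totals were higher in tumor than in bone marrow. Lower in tumor than in blood were 2694 and 1916. With plain library totals, 60.1% of all calls between tumor and blood were higher in tumor, against 45.0% here, and 60.9% against 40.5% between tumor and bone marrow. These 3 comparisons share their libraries pairwise. In these bulk samples, fewer cells of a type and less RNA per cell cannot be told apart.

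**Figure D1:**
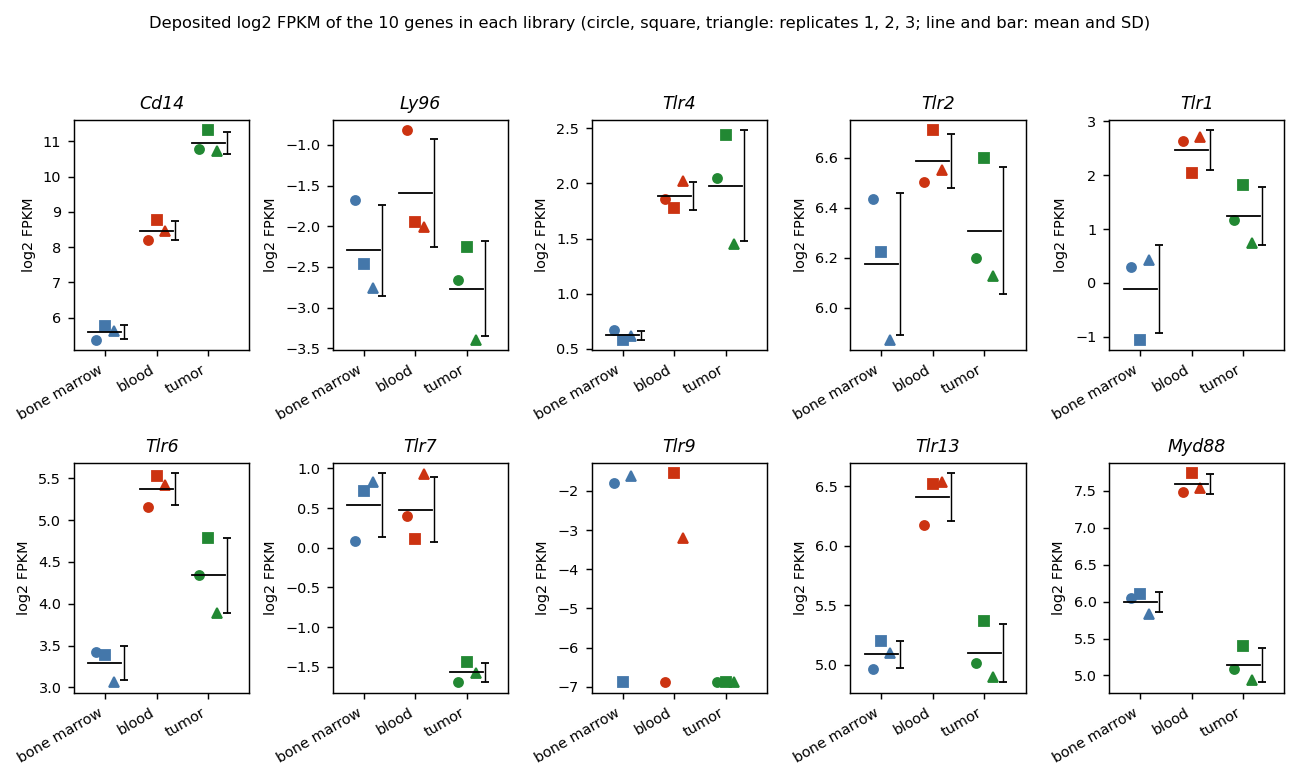
Each panel shows the deposited log2 FPKM (y axis, own scale per gene) of 1 gene in the 3 libraries of bone marrow, blood and tumor, with the group mean and SD; no mean is drawn for Tlr9, which had no read in 5 libraries. Cd14 stood at 10.73 or more in all 3 tumor libraries, whereas Myd88, Tlr13, Tlr6 and Tlr1 peaked in blood.

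Cd14, which encodes the lipopolysaccharide co-receptor, was the gene of this family with the most reads in tumor neutrophils. It lies at chr18:36725067-36726798 on the minus strand. Its log2 FPKM was 5.37, 5.77 and 5.60 in the bone marrow libraries, 8.20, 8.75 and 8.44 in blood and 10.79, 11.31 and 10.73 in tumor. The 3 compartments did not overlap and stood in the order bone marrow, blood, tumor. Cd14 was 5.57-fold higher in tumor than in blood (log2 fold change 2.48, SE 0.21, limma adjusted p = 3.24e-05) and 41.2-fold higher in tumor than in bone marrow (log2 fold change 5.37, SE 0.21, limma adjusted p = 2.45e-06). Blood was 7.40-fold above bone marrow (log2 fold change 2.89, limma adjusted p = 4.47e-05). By number of reads, Cd14 ranked 32, 13 and 21 among all genes across the tumor libraries, whereas its rank lay between 2125 and 2573 in bone marrow.

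Cd14 is also carried by monocytes, macrophages and some other cells, so their markers are given beside it. The 11 macrophage and monocyte markers summed to 402 to 510 RPM in tumor, 1145 to 1341 in blood and 425 to 464 in bone marrow. Cd14 alone stood at 3357 to 4576 RPM in tumor. The sum follows mainly Csf1r, at 224 to 245 RPM in tumor and 919 to 1047 in blood, and Adgre1, at 118 to 219 and 155 to 184. Markers of tissue macrophages in the same list were few but higher in tumor than in blood without overlap, with C1qa at 4.61 to 5.88 against 0.439 to 2.40, C1qb at 9.23 to 16.0 against 2.78 to 6.33, Mrc1 at 3.31 to 8.92 against 1.08 to 2.84 and Mertk at 1.47 to 5.07 against 0 to 1.09. The tumor epithelium and fibroblast sums given above were also higher in tumor than elsewhere, and the part of these cells in the Cd14 level was not tested.

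Tlr4, the receptor that CD14 serves, was higher in blood and in tumor than in bone marrow, and its difference between tumor and blood did not pass the test. It lies at chr4:66827584-66930284 on the plus strand. Log2 FPKM values of Tlr4 were 0.67, 0.58 and 0.62 in bone marrow, 1.86, 1.78 and 2.02 in blood and 2.05, 2.44 and 1.45 in tumor. The blood and tumor libraries overlapped and all of them lay above bone marrow. The difference of tumor against blood was 0.09 on the log2 scale (limma 95% interval -0.45 to 0.63, adjusted p = 0.748) and 0.54 with plain library totals (limma adjusted p = 0.0518). Tlr4 was 2.56-fold higher in tumor than in bone marrow (log2 fold change 1.36, SE 0.23, limma adjusted p = 0.00164) and 2.40-fold higher in blood than in bone marrow (log2 fold change 1.26, limma adjusted p = 0.00349).

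Ly96, which encodes MD-2, gave few reads throughout. It lies at chr1:16688051-16709611 on the plus strand and had 45, 22 and 21 reads in bone marrow, 48, 31 and 25 in blood and 21, 34 and 16 in tumor. Its log2 FPKM was below 0 in all 9 libraries. In the tumor libraries it was -2.66, -2.25 and -3.39, below the blood values of -0.82, -1.95 and -2.01 without overlap, and in a fit without the filter the difference was -1.17 (SE 0.48, limma adjusted p = 0.213). Tlr4 had 24.2 to 49.9 reads per read of Ly96 in bone marrow, then 30.6 to 78.3 in blood and 124 to 139 in tumor.

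Ratios of reads within 1 library do not depend on how libraries were scaled, and they set Cd14 apart from both surface receptors. There were 0.421 to 0.588 reads of Cd14 per read of Tlr4 in bone marrow, then 1.32 to 2.04 in blood and 6.92 to 10.1 in tumor. Against Tlr2, the ratio was 0.144 to 0.251 in bone marrow, then 0.983 to 1.25 in blood and 7.29 to 7.92 in tumor. In neither ratio did any compartment overlap another.

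**Figure D2:**
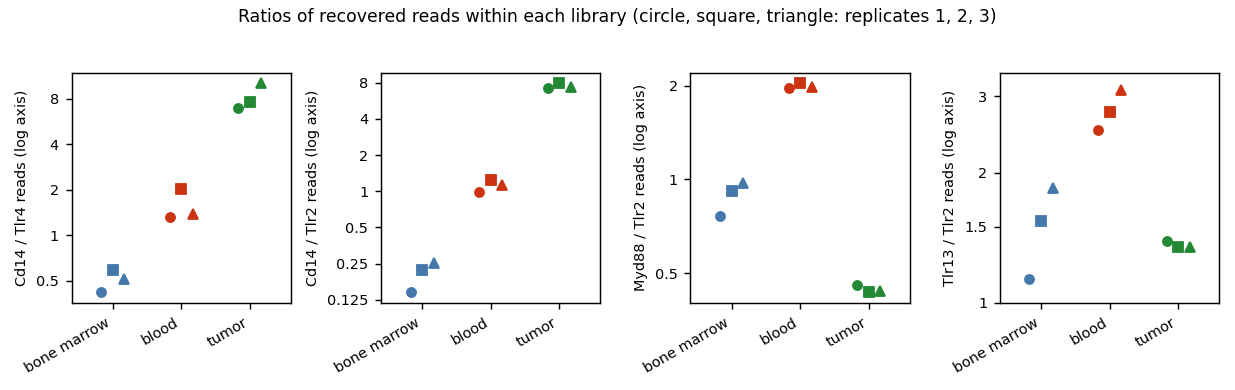
Each panel gives the ratio of recovered reads of a pair of genes (y axis, logarithmic) in each of the 9 libraries. Cd14 over Tlr2 reached 7.29 to 7.92 in tumor and 0.983 to 1.25 in blood, while Myd88 over Tlr2 was highest in blood, at 1.97 to 2.04, and Tlr13 over Tlr2 was 1.34 to 1.39 in tumor.

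Tlr2, the shared partner of TLR1 and TLR6, passed the test in none of the 3 comparisons on the deposited scale. It lies at chr3:83836272-83841767 on the minus strand. The bone marrow libraries had log2 FPKM of 6.43, 6.22 and 5.87, the blood libraries 6.50, 6.71 and 6.55 and the tumor libraries 6.20, 6.60 and 6.13. The tumor libraries overlapped both other compartments, and blood lay just above bone marrow. On the log2 scale, tumor against blood was -0.28 (limma 95% interval -0.68 to 0.13, adjusted p = 0.197), tumor against bone marrow was 0.13 (-0.27 to 0.54, adjusted p = 0.548) and blood against bone marrow was 0.41 (0.01 to 0.82, adjusted p = 0.0915). The first was 0.17 with plain library totals, so its sign rests on the scaling. Tumor against bone marrow passed with plain library totals, at 0.58 (limma adjusted p = 0.00906), and under quantile normalization, at 0.43 (limma adjusted p = 0.0257), and blood against bone marrow passed with plain totals, at 0.42 (limma adjusted p = 0.0451).

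Tlr6 was highest in blood, lowest in bone marrow and between them in tumor. Its log2 FPKM was 3.42, 3.39 and 3.06 in bone marrow, 5.16, 5.53 and 5.42 in blood and 4.34, 4.78 and 3.89 in tumor, without overlap between compartments. It was 4.23-fold higher in blood than in bone marrow (log2 fold change 2.08, SE 0.23, limma adjusted p = 0.000288), 2.05-fold lower in tumor than in blood (log2 fold change -1.03, limma adjusted p = 0.00447) and 2.07-fold higher in tumor than in bone marrow (log2 fold change 1.05, limma adjusted p = 0.00509). Under quantile normalization the difference of tumor from blood was -0.51 (limma adjusted p = 0.0501), and plain library totals gave -0.58 (limma adjusted p = 0.0236).

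Tlr1 showed the same order at much lower depth. It had 73, 24 and 79 reads in bone marrow, 218, 205 and 273 in blood and 123, 236 and 118 in tumor, at log2 FPKM of 0.30, -1.05 and 0.43, then 2.64, 2.05 and 2.71, then 1.16, 1.81 and 0.75. The compartments did not overlap. It was 5.96-fold higher in blood than in bone marrow (log2 fold change 2.57, SE 0.45, limma adjusted p = 0.00261), 2.34-fold lower in tumor than in blood (log2 fold change -1.23, limma adjusted p = 0.0424) and 2.55-fold higher in tumor than in bone marrow (log2 fold change 1.35, limma adjusted p = 0.0333). With plain library totals, tumor against blood was -0.78 and did not pass (limma adjusted p = 0.175). Both differences that involve tumor lie close to the threshold, and single libraries move them across it, bone marrow replicate 2 among them, without which tumor against bone marrow was 0.88 (limma adjusted p = 0.0759). With replicate number as a block in the fit, tumor against blood (limma adjusted p = 0.0692) and tumor against bone marrow (limma adjusted p = 0.0582) did not pass. The ratio of Tlr6 to Tlr1 reads was 5.66 to 20.0 in bone marrow, then 5.23 to 10.2 in blood and 7.12 to 8.26 in tumor, and all 3 ranges overlapped. How reads from the shared run printed above were assigned is not given in the sources used here.

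Of the endosomal receptors, Tlr13 was the most abundant per exonic length in every compartment. It lies at chrX:106143204-106160493 on the plus strand. Log2 FPKM values were 4.97, 5.20 and 5.10 in bone marrow, 6.18, 6.52 and 6.53 in blood and 5.02, 5.37 and 4.90 in tumor. Blood lay above both other compartments, which overlapped each other. Tlr13 was higher in blood than in bone marrow (log2 fold change 1.32, SE 0.15, limma adjusted p = 0.000367) and 2.48-fold lower in tumor than in blood (log2 fold change -1.31, SE 0.15, limma adjusted p = 0.000164). Tumor and bone marrow differed by 0.01 on the log2 scale (limma 95% interval -0.34 to 0.36), which became 0.46 with plain library totals and passed the threshold there (limma adjusted p = 0.0125). The fall from blood to tumor was -0.86 with plain library totals and -0.76 under quantile normalization, and both passed.

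Tlr7, a sensor of single-stranded RNA, was lower in tumor than in both other compartments. It lies at chrX:167304929-167330558 on the minus strand and had 181, 237 and 302 reads in bone marrow, 134, 155 and 228 in blood and 49, 71 and 68 in tumor. Its log2 FPKM was 0.08, 0.71 and 0.83 in bone marrow, 0.41, 0.12 and 0.92 in blood and -1.69, -1.44 and -1.58 in tumor. The tumor libraries lay below all others, and bone marrow and blood overlapped. All tumor values were below 0, so Tlr7 passed the filter only through bone marrow and blood, where it was higher. Tlr7 was 4.15-fold lower in tumor than in blood (log2 fold change -2.05, SE 0.29, limma adjusted p = 0.00046) and 4.32-fold lower than in bone marrow (log2 fold change -2.11, SE 0.29, limma adjusted p = 0.000492). Blood against bone marrow was -0.06 (limma 95% interval -0.73 to 0.61). With 1 FPKM added before the log, the differences of tumor from blood and bone marrow were -0.85 and -0.88 and both passed.

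TLR7 is also carried by B cells and plasmacytoid dendritic cells. The 6 B cell markers summed to 4.41 to 10.8 RPM in tumor, below the 78.9 to 132 of blood and the 17.2 to 43.7 of bone marrow. The list of 9 dendritic cell markers, most of which mark conventional dendritic cells, summed to 3.54 to 11.2 in tumor, against 21.9 to 49.1 in blood and 13.1 to 29.4 in bone marrow. Of its 2 genes used as plasmacytoid markers, Siglech had 0 reads in tumor and 0.439 to 4.80 RPM in blood, whereas Ccr9 stood at 0.922 to 4.30 RPM in tumor, overlapping the 1.08 to 1.75 of blood. Their part in the Tlr7 level was not tested.

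Tlr9 was at the limit of detection. It lies at chr9:106222598-106226883 on the plus strand and had 8, 0 and 9 reads in bone marrow, 0, 8 and 2 in blood and 0 in each tumor library. A count of 0 with a limit of 3 reads allows up to 0.43 to 0.551 RPM in the tumor libraries, which covers counting error only. In a fit without the filter, none of its differences passed the threshold (limma adjusted p = 0.54 for tumor against blood, 0.451 for tumor against bone marrow and 1 for blood against bone marrow), so no difference was detectable at this depth.

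Myd88, the adaptor, moved opposite to Cd14 between blood and tumor. It lies at chr9:119335934-119341411 on the minus strand. Myd88 had log2 FPKM of 6.04, 6.10 and 5.84 in bone marrow, 7.49, 7.74 and 7.54 in blood and 5.08, 5.40 and 4.94 in tumor. The compartments did not overlap, with blood highest and tumor lowest. Myd88 was 5.45-fold lower in tumor than in blood (log2 fold change -2.45, SE 0.14, limma adjusted p = 6.16e-06), 1.81-fold lower in tumor than in bone marrow (log2 fold change -0.85, SE 0.14, limma adjusted p = 0.00122) and 3.02-fold higher in blood than in bone marrow (log2 fold change 1.59, limma adjusted p = 0.000103). The smaller difference, from bone marrow, was -0.40 with plain library totals and -0.53 under quantile normalization, and passed in both. Within a library, there were 0.761 to 0.974 reads of Myd88 per read of Tlr2 in bone marrow, then 1.97 to 2.04 in blood and 0.434 to 0.459 in tumor.

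Other genes overlap Myd88 on the genome. Acaa1a, a peroxisomal thiolase gene on the opposite strand, shares 1736 bases with it, and 6.72% of the stretches of 100 bases in the Myd88 transcript also lie in a transcript of Acaa1a. Acaa1a had 874, 857 and 786 reads in bone marrow, 931, 1452 and 1052 in blood and 501, 544 and 636 in tumor. Its log2 FPKM was also highest in blood and lowest in tumor, at 2.76 to 2.93 there, and reads of the shared stretch cannot be told apart without strand. Slc22a14, whose annotated span covers Myd88 on the same strand, had 0 reads in all 9 libraries.

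**Figure D3:**
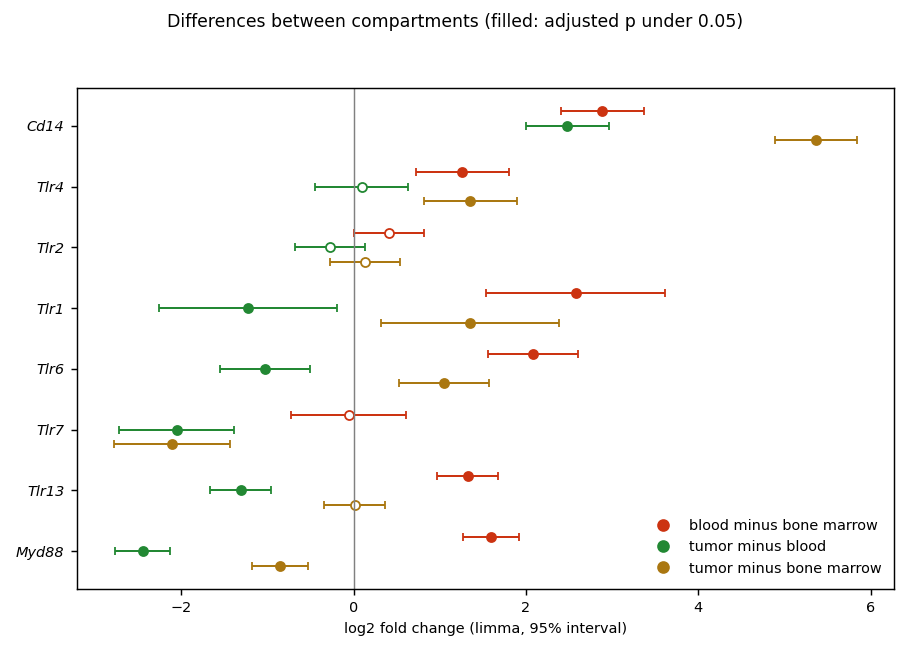
The x axis gives the log2 fold change from limma with its 95% interval for the 8 genes tested, in the 3 comparisons, and filled points passed an adjusted p of 0.05. Cd14 rose in all 3, from 2.48 to 5.37, whereas Myd88 reached 1.59 for blood against bone marrow and -2.45 for tumor against blood.

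Levels can be compared between genes only per length, and the deposited FPKM divide by the genomic span of most genes, 102701 bases for Tlr4 against 5496 for Tlr2. Levels were therefore also expressed as exonic RPKM, in which the reads are divided by the exonic length and the scaled library size. In bone marrow, Tlr13 stood at 137 ± 11.0 (SD, n = 3), Myd88 at 136 ± 12.7 (SD, n = 3) and Tlr2 at 133 ± 25.6 (SD, n = 3), and these 3 overlapped. Cd14 followed at 46.2 ± 6.33 (SD, n = 3), then Tlr4 at 28.5, Tlr6 at 21.3, Tlr7 at 9.34, Ly96 at 4.50, Tlr1 at 2.70 and Tlr9 at 0.245, and of these neighbours Ly96 and Tlr1 overlapped.

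In blood, Myd88 came first at 411 ± 38.8 (SD, n = 3), above Tlr13 at 344 ± 46.1 (SD, n = 3) and Cd14 at 344 ± 66.6 (SD, n = 3), which overlapped. Tlr2 was next at 176, followed by Tlr6 at 90.1 and Tlr4 at 68.5. Tlr1 at 14.95, Tlr7 at 9.01 and Ly96 at 7.52 overlapped as neighbours, and Tlr9 was last at 0.178.

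In tumor, Cd14 stood at 1924 ± 444 (SD, n = 3), apart from Tlr2 at 146 ± 26.8 (SD, n = 3) and Tlr13 at 139 ± 24.2 (SD, n = 3), which overlapped. Tlr4 at 75.8 ± 24.9 (SD, n = 3) and Myd88 at 75.7 ± 12.6 (SD, n = 3) overlapped as well. Tlr6 followed at 45.2, Tlr1 at 6.56, Ly96 at 3.23 and Tlr7 at 2.11, and Ly96 overlapped Tlr7.

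**Figure D4:**
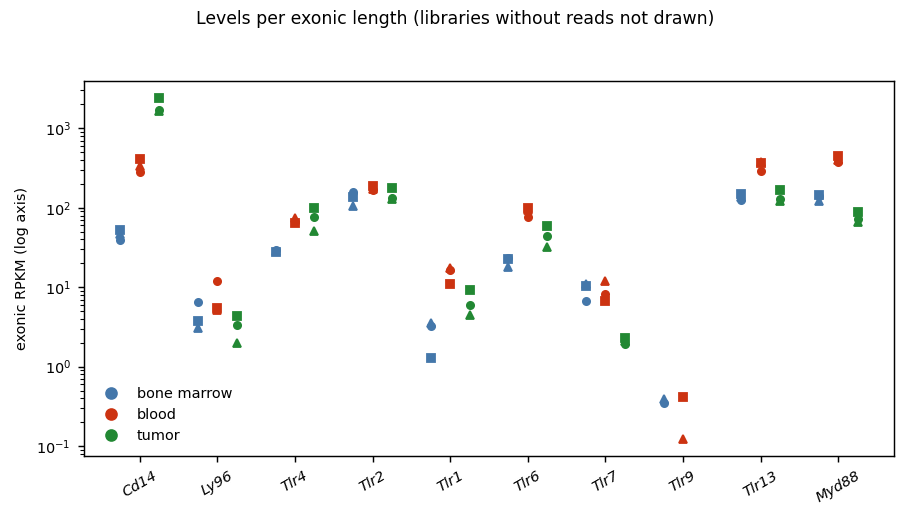
The y axis (logarithmic) gives the exonic RPKM in each library, for the 10 genes in bone marrow, blood and tumor. Cd14 in tumor, at a mean of 1924, stood above every other gene, while Tlr9 and Ly96 stood low in all compartments.

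The 3 tumor libraries differed from each other in nearly the same order across the family. Of the 9 genes with reads in tumor, replicate 2 was the highest in 9 and replicate 3 the lowest in 8 by log2 FPKM. The share of all genes tested with this order was not counted, so it may not be particular to the family. Replicate 2 had the lowest sum of tumor epithelium markers, 2727 RPM, and replicate 3 the highest, 5840, and their scaling factors were 1.08 and 1.22. By RPM, which uses plain totals, replicate 2 was the highest in 8 of 9 and replicate 3 the lowest in 6. The part of epithelial RNA in this order was not tested.

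Further genes of the pathway were described from lists of receptors and chaperones, signaling proteins, inhibitors and target genes. Of the 12 other receptors, ligand carriers and chaperones, 6 were tested, and 2 were higher and 4 lower in tumor than in blood, with a median log2 fold change of -1.19 beside -0.17 over all genes. Over all genes tested, 28.1% were higher and 34.5% lower. Tlr8, an endosomal receptor next to Tlr7 in function, was -3.33 in tumor against blood (SE 0.30, limma adjusted p = 4.77e-05) with 47 to 121 reads in tumor and 376 to 544 in blood. Lbp, which carries lipopolysaccharide to CD14, was 2.37 (SE 0.32, limma adjusted p = 0.000355) but stood at -2.08 in tumor against bone marrow (limma adjusted p = 0.000886). Hsp90b1, the chaperone needed to fold most Toll-like receptors, was 2.04 (SE 0.15, limma adjusted p = 1.73e-05). Against bone marrow, 1 of these 6 was higher and 4 were lower in tumor, beside 22.4% and 32.9% of all genes tested. Their median was -1.42 beside -0.21 over all genes. Tlr5 and Tlr8, both among the lower genes, passed the filter only through bone marrow and blood. Among the genes not tested, Tlr3 had 42 to 47 reads in tumor and 0 to 5 in blood, and Cd36 had 106 to 158 and 26 to 27. The others not tested, Tlr11, Tlr12, Cd180 and Ly86, had lower mean log2 FPKM in tumor than in blood. The counts and medians of this list therefore depend on the filter.

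Of the 22 adaptors, kinases and transcription factors, 18 were tested, and 3 were higher, 5 lower and 10 not past the threshold in tumor against blood, with a median of -0.09 beside -0.17 over all genes. Over all genes tested, 28.1% were higher and 34.5% lower. Ikbke, a kinase of the interferon branch, was 3.21 (SE 0.24, limma adjusted p = 1.75e-05). It had 384 to 441 reads in tumor, 20 to 37 in blood and 178 to 236 in bone marrow. In tumor against bone marrow Ikbke was 0.85 (limma adjusted p = 0.016). The IRAK kinases that MyD88 recruits went in different directions. Irak4 was -2.39 (SE 0.14, limma adjusted p = 7.12e-06), with 340 to 460 reads in tumor and 1107 to 1528 in blood, whereas Irak2 was 2.23 (SE 0.19, limma adjusted p = 3.31e-05), with 2753 to 4066 reads in tumor and 374 to 555 in blood. Against bone marrow, 6 of the 18 genes of this list were higher and 3 lower in tumor, beside 22.4% and 32.9% of all genes tested. Their median was 0.18 beside -0.21 over all genes. Tab1 passed the filter only through tumor and Tab2 only through blood.

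Of the 12 inhibitors of the pathway, 7 were tested, and 1 was higher and 4 lower in tumor than in blood, with a median of -0.80 beside -0.17 over all 7794 genes, of which 28.1% were higher and 34.5% lower. The higher one was Tnfaip3, which encodes the ubiquitin-editing enzyme A20 and is itself induced by NF-kB, at 5.34 (SE 0.39, limma adjusted p = 1.73e-05), with 6333 to 14461 reads in tumor and 69 to 234 in blood. Lyn, a Src-family kinase, was -1.97 (SE 0.14, limma adjusted p = 1.63e-05) and Inpp5d, which encodes the phosphatase SHIP1, was -0.87 (SE 0.14, limma adjusted p = 0.00083).

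Genes that Toll-like receptor signaling is known to induce stood mostly higher in tumor where they passed the filter. Of 20 such genes listed, 16 were tested, and 15 were higher and 0 lower in tumor than in blood, with a median log2 fold change of 4.25 beside -0.17 over all genes, and 16 were higher in tumor than in bone marrow, with a median of 5.21 beside -0.21. Over all genes tested, 28.1% were higher in tumor than in blood and 22.4% higher than in bone marrow. Between blood and bone marrow, 8 were higher and 2 lower in blood, beside 20.6% and 23.6% of all genes tested. Cxcl1, a neutrophil chemoattractant, had 260 to 979 reads in tumor and 2 reads over the 3 blood libraries together. Cxcl3, a related chemokine, had 2919 to 7157 reads in tumor and 21 over the blood libraries, and Il1a, which encodes an interleukin-1 cytokine, had 2367 to 4829 and 14. Listed genes with mean log2 FPKM below 0 in blood and bone marrow, among them Cxcl1, Cxcl3 and Il1a, passed the filter only through tumor. The counts and medians of this list therefore lean towards genes high in tumor. Many other receptors also induce these genes, and the tumor libraries hold epithelial and fibroblast RNA as given above, whose part was not tested.

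For each of the 8 genes tested, the gene whose log2 FPKM over the 9 libraries was most alike is given as a description, over points that fall into 3 compartments. Cd14 was most like Bnip3, a mitophagy receptor gene (Pearson r = 0.998), and Bnip3 was 1.70 higher in tumor than in blood on the log2 scale. Myd88 was most like Nlrp12, an NLR family gene (r = 0.997), which was -2.99 in tumor against blood. Tlr6 was most like Cd300lf, an inhibitory receptor gene (r = 0.993), Tlr4 like Ankrd37 (r = 0.991), Tlr13 like Mvp, which encodes the major vault protein (r = 0.991), Tlr7 like Fbxo46 (r = 0.988), Tlr1 like RP23-231L15.4 (r = 0.981) and Tlr2 like Ankrd66 (r = 0.930).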

How the data were processed

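The study sequenced neutrophil RNA from 3 compartments of OT mice, with 9 libraries in total. Per the methods and the submitters' processing notes, cDNA was made with SMARTSeq v2, reads were mapped with STAR 2.5.2b to GRCm38 and counted with featureCounts 1.5.0 on GENCODE M7 genes, and edgeR 3.8.6 was used. Whether counting used strand is not given in the sources used here. The deposited values are log2 FPKM, computed by the authors for 46517 genes with 0.25 reads added, scaled library sizes and, for 84.5% of the 46005 genes matched in GENCODE M21, the genomic span as length. Whole reads were recovered from the steps between values for all 46517 genes (tolerance 0.001 reads). No correction for PCR duplicates was made, so read numbers can carry amplification error beyond counting error.

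The 7794 genes with log2 FPKM above 0 in 3 or more libraries entered limma 3.58.1 in R 4.3.3 (eBayes with trend, all 9 libraries in 1 fit, Benjamini-Hochberg adjusted, threshold 0.05), and fold changes are on the log2 FPKM scale. The methods were tested on simulated data. The members and lists were chosen with earlier results of these data known. Named genes are the members, up to 3 genes per pathway list with the largest absolute difference of tumor from blood past the threshold, and the gene most alike to each member tested. Acod1 was listed under its older symbol Irg1. Positions are from GENCODE M21 and promoters from RefSeq (GRCm38.p6). For each result, 20 alternatives were tried, covering filter, pseudocount, scaling, limma-voom on recovered reads, variance model, samples in the fit, replicate number and each library left out.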

Additional observations from a re-analysis of the deposited data

How the results depend on the processing

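Of 477 values of the 8 genes in 3 comparisons under 20 alternatives, 447 kept their direction and their side of the threshold, 14 called values lost it, 5 uncalled values gained it and 11 uncalled values changed sign. Calls of Cd14, Myd88, Tlr4 and Tlr7 were kept wherever these genes were tested. The count of genes lower in tumor than in bone marrow was 1 instead of 2 with a filter of log2 FPKM above 2, which Tlr7 did not pass. Tlr1 lost its call for tumor against blood in 7 of 20 alternatives (limma adjusted p 0.00456 to 0.197: no filter, plain library totals, replicate block, and without blood replicate 1 or 3 or tumor replicate 1 or 3) and for tumor against bone marrow in 6 (0.0113 to 0.169: no filter, replicate block, only the 2 compartments compared, and without bone marrow replicate 2 or tumor replicate 1 or 2). The changes of sign were all in differences that did not pass. Tlr2 in tumor against blood was 0.29 under quantile normalization and 0.17 with plain library totals, and Tlr7 in blood against bone marrow was 0.0397 under quantile normalization. With each library left out in turn, Tlr4 in tumor against blood ranged from -0.14 to 0.36, Tlr2 in tumor against bone marrow from -0.0194 to 0.26, Tlr13 in tumor against bone marrow from -0.13 to 0.11 and Tlr7 in blood against bone marrow from -0.29 to 0.13. Calls gained were Tlr2 and Tlr13 in tumor against bone marrow, under quantile normalization and plain library totals, and Tlr2 in blood against bone marrow with plain library totals (limma adjusted p = 0.0451). The cause was not tested.

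The paper describes the bone marrow, blood and tumor neutrophils as coming from the same mouse. The sample labels do not say which pools belong together, and the main fit uses no pairing. Libraries with the same replicate number did not deviate together from their compartment means (correlations -0.07 to 0.11 over 9 pairs, against -0.10 to 0.11 over 18 pairs with different numbers), and in 8 of 18 comparisons a library correlated best with its own number. With the replicate block, 1 gene was higher and 4 lower in tumor than in blood, 3 were higher and 2 lower in tumor than in bone marrow, and 6 were higher and 0 lower in blood than in bone marrow, and Tlr1 was the only gene of the 8 whose calls differed.

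Depth limits Tlr9 and Ly96, Tlr7 in tumor and Tlr1 in bone marrow, and 3 libraries per compartment limit the precision throughout.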
